A study of Homo sapiens with 2 samples.

Results

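Protein-coding promoters of low GC content were examined in 293T cells with and without methylglyoxal (MGO), a reactive by-product of glycolysis that forms adducts on proteins and DNA. A peak was taken as a member when it was in the peak list of the control library, on chromosomes 1 to 22, X or Y, lay within 1000 bp of a transcript start of a protein-coding gene in GENCODE 44, and had fewer than 0.50 of its GRCh38 bases as G or C. Of 13271 protein-coding promoter peaks of the control library, 962 met this rule and 12309 had a GC fraction of 0.50 or more. The whole control list held 36142 peaks, of which 35515 were on these chromosomes.

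ATAC-seq maps open chromatin with a transposase, Tn5, that cuts and tags nucleosome-free DNA, so that reads accumulate over accessible regions. The 293T line derives from human embryonic kidney and expresses SV40 large T antigen. Control cells received fresh medium without a supplement (another label names PBS), treated cells received medium with 0.5 mM MGO, and 50000 cells of each were processed after 12 h. A single library of each condition was analysed, as broad peaks in lists of 36142 (control) and 22884 (MGO) entries, so no difference between conditions has a replicate check. Accessibility of more cells and greater accessibility per cell cannot be told apart in such bulk libraries. Intervals (95%) cover counting error only and treat peaks as independent. VIM, PAX2, EYA1, LIN28B and MYC, checked as genes active in embryonic kidney lines, each had a promoter peak in both libraries, and none of 8 genes typical of other cell types had 1 in either.

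Most human promoters lie in CpG islands, stretches rich in G, C and the dinucleotide CpG, which are usually unmethylated and open in many cell types. Promoters of low GC content are mostly poor in CpG, because methylated CpG mutates readily. Such promoters often serve genes of restricted tissues, more often carry a TATA box, and tend to depend on the transcription factors of the cell for opening. CpG content is given here as observed over expected CpG, that is the number of CpG divided by the number that the C and G counts of the sequence would give at random.

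The following sequences show how these promoters differ among themselves. Each is reference sequence (GRCh38), written 5′ to 3′ in lower case with every CpG in capitals. The first pair belongs to the members of strongest control peak that had no peak in MGO. For GRM8, a glutamate receptor, the central 250 bases of the peak are shown (plus strand, chr7:127107755-127108004), and for GC, the gene of the vitamin D-binding protein, the 250 bases before its start (minus strand, chr4:71784080-71784329).
GRM8: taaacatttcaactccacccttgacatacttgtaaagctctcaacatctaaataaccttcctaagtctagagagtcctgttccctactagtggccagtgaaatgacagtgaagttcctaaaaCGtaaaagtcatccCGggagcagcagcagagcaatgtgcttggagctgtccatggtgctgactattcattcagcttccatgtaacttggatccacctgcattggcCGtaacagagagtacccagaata
GC: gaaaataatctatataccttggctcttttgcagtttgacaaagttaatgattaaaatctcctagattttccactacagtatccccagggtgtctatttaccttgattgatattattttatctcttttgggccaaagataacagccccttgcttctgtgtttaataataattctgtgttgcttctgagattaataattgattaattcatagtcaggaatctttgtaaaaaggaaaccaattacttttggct
The GRM8 stretch held 3 CpG and the GC stretch 0.

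Members of highest fold enrichment that had a peak in both libraries follow. They are NUDT13, a Nudix hydrolase (plus strand, chr10:73110205-73110374, just upstream of the peak), PRIM2, a subunit of DNA primase (plus strand, chr6:57317380-57317623), and NDUFS4, a subunit of mitochondrial complex I (plus strand, chr5:53560389-53560632). For these, bases annotated as UTR were left out of the 250 bases before the start.
NUDT13: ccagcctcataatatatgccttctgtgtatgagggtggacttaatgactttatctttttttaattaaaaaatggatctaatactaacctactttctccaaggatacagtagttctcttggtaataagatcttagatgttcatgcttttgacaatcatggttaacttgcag
PRIM2: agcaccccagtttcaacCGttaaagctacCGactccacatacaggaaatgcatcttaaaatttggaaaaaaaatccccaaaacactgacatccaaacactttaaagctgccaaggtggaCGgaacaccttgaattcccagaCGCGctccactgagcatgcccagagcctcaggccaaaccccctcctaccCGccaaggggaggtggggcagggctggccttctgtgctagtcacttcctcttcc
NDUFS4: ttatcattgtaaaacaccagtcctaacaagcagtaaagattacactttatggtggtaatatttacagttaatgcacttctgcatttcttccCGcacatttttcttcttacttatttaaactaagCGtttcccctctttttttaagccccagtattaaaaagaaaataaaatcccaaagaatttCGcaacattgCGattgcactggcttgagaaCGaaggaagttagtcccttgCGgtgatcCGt
PRIM2 held 6 CpG in 244 bases and NDUFS4 held 7 in 244 bases, whereas NUDT13 held 0 in 170 bases.

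The members of lowest GC content that contained the canonical start of a gene, the transcript start chosen by Ensembl as representative, are shown by their 250 bases before the start. FABP2 encodes the intestinal fatty acid-binding protein (minus strand, chr4:119322139-119322388), GPR183 an oxysterol receptor of immune cells (minus strand, chr13:99307400-99307649), and EYS a protein of photoreceptors (minus strand, chr6:65707227-65707476).
FABP2: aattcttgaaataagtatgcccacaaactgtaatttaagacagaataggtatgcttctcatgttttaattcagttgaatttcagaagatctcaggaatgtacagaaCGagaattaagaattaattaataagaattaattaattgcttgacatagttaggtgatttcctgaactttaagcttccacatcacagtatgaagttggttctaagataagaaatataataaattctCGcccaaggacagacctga
GPR183: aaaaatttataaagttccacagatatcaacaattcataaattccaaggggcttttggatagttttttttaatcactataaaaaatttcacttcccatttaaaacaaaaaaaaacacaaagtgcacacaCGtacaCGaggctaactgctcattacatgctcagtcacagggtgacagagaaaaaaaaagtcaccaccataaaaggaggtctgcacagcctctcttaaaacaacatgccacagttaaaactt
EYS: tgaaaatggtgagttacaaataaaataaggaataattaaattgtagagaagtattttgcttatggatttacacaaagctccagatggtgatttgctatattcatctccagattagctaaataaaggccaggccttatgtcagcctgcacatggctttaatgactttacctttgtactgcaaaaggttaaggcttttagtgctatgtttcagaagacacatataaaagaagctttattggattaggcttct
FABP2 and GPR183 held 2 CpG each and EYS held 0. The EYS stretch has TATAAA with its first base 31 bp before the start. None of these promoters had a peak in MGO.

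To ask how often a low-GC promoter that was open in control cells was still detected after MGO, each control peak was scored for overlap of at least 1 bp with any MGO peak. Of the 962 low-GC promoter peaks, 445 overlapped an MGO peak (46.3%, 43.1 to 49.4%) and 517 did not (53.7%). For comparison, 12.3% of all protein-coding promoter peaks and 50.3% of all control peaks on the same chromosomes had no MGO peak. Among the promoter peaks with a GC fraction of 0.50 or more, 11188 of 12309 overlapped an MGO peak (90.9%, 90.4 to 91.4%). Low-GC promoters were thus 44.6 percentage points lower (41.4 to 47.8, Newcombe). Low-GC peaks away from protein-coding starts overlapped an MGO peak in 20.2% of cases (2971 of 14688), 26.0 points below the low-GC promoters (22.8 to 29.3). Over all deposited peaks, low-GC promoters thus lay between the other promoters and the low-GC remainder of the list. The difference between other and low-GC promoters was 34.0 points when both lists were limited to a −log10 q of 2 or more. It was 23.2 points at a −log10 q of at least 5, and 27.0 points with equal numbers of peaks in both lists. At a fold enrichment of at least 4 in both lists it was 6.22 points, with an interval that includes 0 (−2.46 to 14.0). The comparison with peaks away from starts was not repeated at these limits. Where a low-GC promoter peak had no counterpart, the nearest MGO peak was a median of 36930 bp away, and only 6 of the 517 had one within 1000 bp.

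The share with an MGO peak rose with the GC fraction throughout the low-GC range, and the 2 members below 0.30 had no MGO peak. The share was 13.3% at 0.30 to 0.35 (60 peaks), 24.9% at 0.35 to 0.40 (181 peaks), 43.6% at 0.40 to 0.45 (280 peaks) and 61.5% at 0.45 to 0.50 (439 peaks). Above the limit it was 83.3% at 0.50 to 0.55 (1003 peaks), it was highest at 0.70 to 0.75 (93.7%), and it was 76.6% at 0.80 to 0.85 (111 peaks). Peaks away from protein-coding starts stayed between 20.5 and 22.7% from 0.35 to 0.50. At 0.30 to 0.35 the promoter share lay close to theirs (11.7%), with overlapping intervals.

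**Figure D1:**
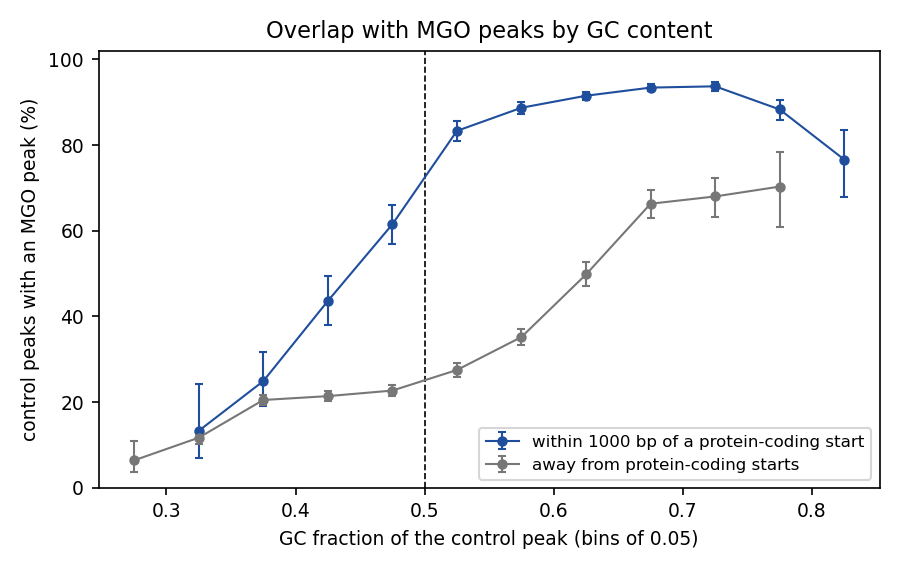
Percentage of control peaks that overlapped an MGO peak (y axis) by GC fraction of the peak (x axis, bins of 0.05) for peaks within 1000 bp of a protein-coding start (blue) and away from starts (grey). Bars are 95% Wilson intervals and the dashed line is the limit of 0.50; the promoter curve climbs from 13.3% to 61.5% below the limit while the grey curve stays under 25%.

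The members just below the limit of 0.50 were TRIM23, a ubiquitin ligase (GC 49.97%), PNPLA4, a lipase (49.94%), and TAAR6, a trace amine receptor (49.89%). The first and the second of these had an MGO peak, which covered 100% and 23.4% of the control peak, and TAAR6 had none. The MGO peak of PNPLA4 was narrower than its control peak (459 against 1716 bp) but had the higher values. Its fold enrichment was 4.51 against 3.08 and its −log10 p 8.53 against 4.79. The peaks just above it, at the limit itself, included those of RPF1 and TMEM259, and both had an MGO peak, covering 82.7% and 80.0%.

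Low-GC promoter peaks were weaker and narrower in control cells than the other promoter peaks. Their median fold enrichment over background was 3.12 (quartiles 2.81 to 3.65) against 3.56 (3.06 to 4.09), the median −log10 p was 4.98 (3.92 to 7.74) against 8.73 (5.95 to 12.8), and the median width was 791 bp against 1082 bp. In 34.0% of them the −log10 q was under 2, against 7.74% of the other promoter peaks. The 517 members without an MGO peak had a median −log10 p of 4.05 and a width of 570 bp, and the 445 with an MGO peak had 7.70 and 1123 bp.

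Peak strength went along with part of this difference. When promoter peaks were divided into 5 groups of equal size by −log10 p, 53.2% of the low-GC peaks fell in the weakest group and 17.4% of the others. In that group 17.6% of low-GC peaks had an MGO peak (90 of 512) against 61.6% of the others. In the next groups the shares were 59.8% against 90.2%, 86.7% against 97.9%, and 91.4% against 99.9%. In the strongest group, which starts at a −log10 p of 13.7, 62 of 63 low-GC peaks had an MGO peak (98.4%) and all 2591 of the others did. Weighted over 10 groups of equal −log10 p, the difference was 27.7 points (25.1 to 30.3), at equal −log10 p and width it was 25.7 points (23.3 to 28.1), and at equal fold enrichment it was 39.2 points (36.5 to 42.0). Intervals of such weighted differences are too narrow where groups hold few peaks. Of the 517 low-GC promoter peaks without an MGO peak, 422 were in the weakest group.

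**Figure D2:**
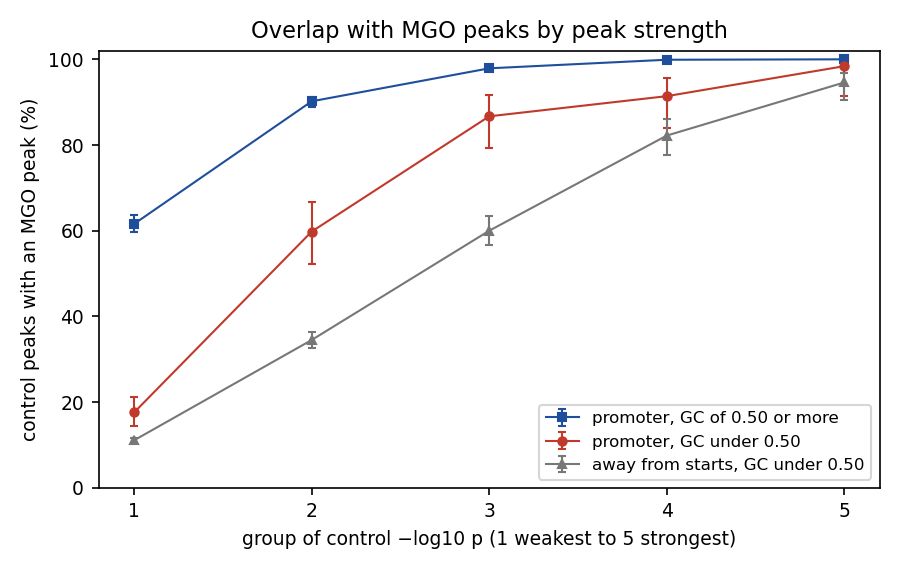
Percentage of control peaks that overlapped an MGO peak (y axis) in 5 groups of control −log10 p (x axis, weakest to strongest) for other promoter peaks (blue squares), low-GC promoter peaks (red circles) and low-GC peaks away from starts (grey triangles), with 95% Wilson intervals. The low-GC promoters lie between the other curves in each group, from 17.6% in the weakest to 98.4% in the strongest.

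Low-GC promoters stood above low-GC peaks away from starts in every strength group, with 17.6% against 11.1% in the weakest and 86.7% against 60.0% in the middle. At equal −log10 p and width the difference was 8.86 points (6.54 to 11.2). At equal −log10 p, width and CpG content it was 4.10 points, given without an interval because these fine groups hold few peaks.

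CpG content differed widely among the members and went with their status. Median observed over expected CpG was 0.310 in low-GC promoter peaks and 0.787 in the others, and it was 0.509 in members with an MGO peak and 0.233 in members without. In 3 groups of nearly equal size by CpG content, which could be computed for 961 members, 17.8%, 39.4% and 81.3% had an MGO peak. A total of 191 members had an observed over expected CpG of 0.6 or more, a level in the range of CpG islands, and 170 of them had an MGO peak (89.0%, 83.8 to 92.7%). Of the 770 members below that level, 274 did (35.6%, 32.3 to 39.0%). The difference of 53.4 points (47.2 to 58.4) was 17.3 points at equal −log10 p and width (11.9 to 22.7). CpG-rich members were also the stronger ones, with a median −log10 p of 8.93 against 4.60, and 86.4% of them lay near a canonical start against 28.7%.

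When promoter peaks were compared within groups of 0.1 of CpG content, the low-GC peaks and the others lay close together. At an observed over expected CpG of 0.2 to 0.3, 28.6% of 210 low-GC peaks and 33.3% of 159 other peaks had an MGO peak. At 0.4 to 0.5 the shares were 56.8% and 55.4%, at 0.6 to 0.7 they were 86.2% and 91.4%, and at 0.8 to 0.9 they were 94.4% and 95.7%. Weighted over groups of 0.1, a comparison added after the data were seen, the difference between other and low-GC promoter peaks was 1.65 points, with an interval of −1.73 to 5.04. At equal −log10 p, width and CpG content it was 4.13 points, without an interval because groups with a single peak of a set add no variance. Pooled over all promoter peaks at 0.6 or more, the others were 5.41 points above the low-GC peaks (1.69 to 10.7). Pooled over all below 0.6 they were 23.9 points above (19.4 to 28.1). Classes this wide do not hold CpG content equal. CpG content, strength and width moved together in these peaks, and their parts in the pooled difference of 44.6 points cannot be told apart.

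**Figure D3:**
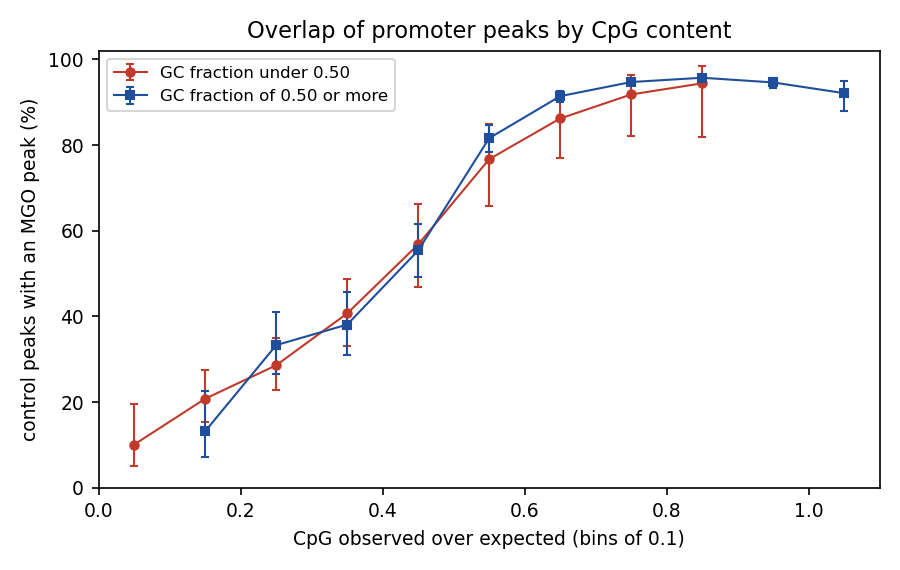
Share of promoter peaks with an overlapping MGO peak (%, y axis) by observed over expected CpG (x axis, bins of 0.1) for low-GC peaks (red) and the other promoter peaks (blue), with 95% Wilson intervals; bins with few peaks are left out. Both curves climb together, from 20.8% and 13.2% at 0.1 to 0.2 to 94.4% and 95.7% at 0.8 to 0.9.

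**Figure D4:**
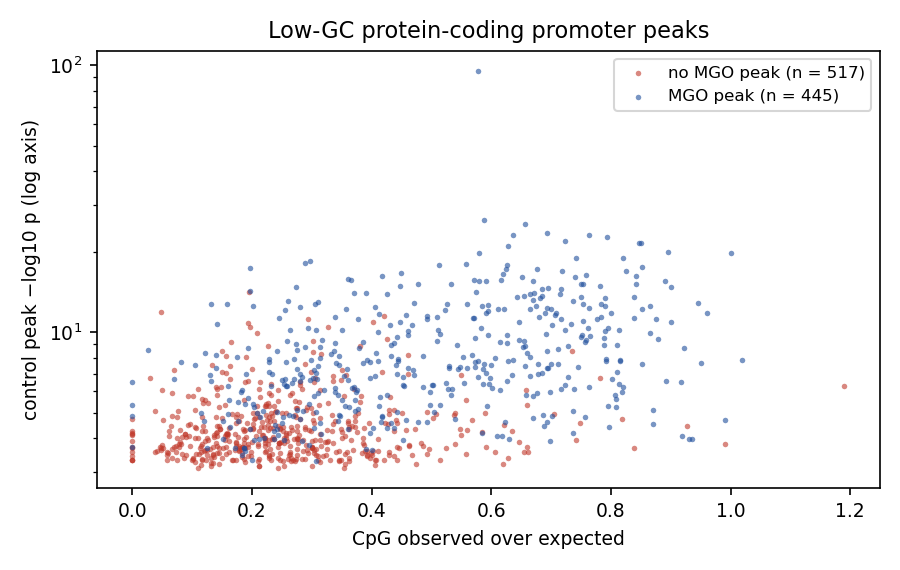
Control −log10 p (y axis, log scale) against observed over expected CpG (x axis) for the low-GC promoter peaks, with 517 members without an MGO peak in red and 445 with an MGO peak in blue. Red points gather at low CpG content and low −log10 p, and the single point near the top is RGPD2, at 95.4.

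Exceptions were found on both sides of this pattern. HOXA9, a homeobox transcription factor, had the highest CpG content of all members (1.19) and no MGO peak, with a control fold enrichment of 2.57 and a −log10 p of 6.27. SF3B3, a subunit of the splicing factor SF3b, had a CpG content of 0.748, a −log10 p of 4.56 and no MGO peak. COX7B, a subunit of cytochrome c oxidase, had 0.927, a −log10 p of 4.46 and none either. As exceptions, these 3 genes were chosen after their values were seen. On the other side, CSRNP3 and INSYN2B were poor in CpG, at 0.263 and 0.289, and had an MGO peak, with control −log10 p of 10.2 and 18.1.

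The kind of start that a low-GC peak lay near was also related to its status. Only 386 of the 962 members lay within 1000 bp of a canonical start, and the other 576 lay near alternative starts only. With a canonical start 68.4% had an MGO peak (63.6 to 72.8%), and with alternative starts only 31.4% did (27.8 to 35.3%). Among the other promoter peaks these shares were 94.0% and 66.4%. The difference within the members was 37.0 points (30.8 to 42.7), and 5.65 points at equal −log10 p and width (0.502 to 10.8). Members with alternative starts only were weaker (median −log10 p 4.36 against 7.25) and poorer in CpG (0.252 against 0.560). They exceeded low-GC peaks away from starts by 5.41 points at equal −log10 p and width (2.56 to 8.27).

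By type of the nearest transcript, 57.0% of 619 members at a coding transcript had an MGO peak, 31.1% of 193 at a transcript of a coding gene without a defined reading frame, 25% of 40 at a transcript subject to nonsense-mediated decay, and 20.2% of 109 at a transcript with a retained intron. The remaining member, at a transcript without a stop codon, had none. In 617 members the start lay inside the peak, and 63.2% of these had an MGO peak. In the other 345 it lay up to 1000 bp outside, and 15.9% did. At equal −log10 p and width this difference was 13.9 points (8.44 to 19.4).

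Most low-GC members had their middle in an intron, 56.7% of them against 30.1% of the other promoter peaks, while 17.6% lay in a UTR against 34.9%. Intronic members had an MGO peak in 38.9% of cases (34.9 to 43.1%), UTR members in 59.2% and intergenic members in 62.9%. Among members near a canonical start the shares in introns, UTRs and intergenic sequence were 67.1%, 67% and 67.8%. The lower share of introns was thus seen in the members with alternative starts only. There introns held 67.7% of the peaks, and 27.7% of these had an MGO peak. It was not particular to introns. In the same members the share was 27.4% in exons outside coding sequence and UTRs (17 of 62) and 33.3% in coding exons (8 of 24).

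Members close to starts of protein-coding genes on both strands were few but nearly all had an MGO peak, 31 of 34 (91.2%, 77.0 to 97.0%), against 44.6% of the remaining members. Among the other promoter peaks these shares were 96.8% (1460 of 1509) and 90.1%. Of 73 members that also lay near the start of a lncRNA gene, 64.4% had an MGO peak, against 44.8% of those that did not. Among the other promoter peaks these shares were 96.0% and 89.3%, so both traits went with a higher share in either set. Neither was compared at equal strength or CpG content.

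Where a low-GC peak was present in both libraries, the MGO peak was usually the narrower, and more often so than at the other promoters. In 440 members paired with a single MGO peak, the MGO peak had a median of 0.805 times the control width (quartiles 0.589 to 0.977), against 0.903 (0.752 to 1.05) in 11149 other pairs. It was narrower in 77.5% of low-GC pairs and in 67.6% of the other pairs. The median share of the control peak that MGO peaks covered was 70.4% (quartiles 53.0 to 89.7%) against 84.3% (70.6 to 94.4%). Where the start lay inside the peak, the upstream edge in MGO was a median of 120 bp inside the control edge and the downstream edge 66 bp inside, against 68 bp and 32 bp for the other promoters. Median −log10 p in these low-GC pairs was 7.71 in control and 5.80 in MGO, and in the other pairs it was also lower in MGO (9.34 and 7.58). Summed over all members, 361 of 874 kb of control peak were covered by MGO peaks (41.3%), against 76.3% for the other promoters and 17.0% for low-GC peaks away from starts.

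To give these promoters a denominator that does not depend on peaks, the canonical start of each of 20033 protein-coding genes was scored by the GC content of the sequence from 250 bp before to 50 bp after it. Low-GC sequence surrounded the start of 3223 genes, of which 537 had a peak within 1000 bp in control (16.7%, 15.4 to 18.0%) and 410 in MGO (12.7%, 11.6 to 13.9%). Both libraries had a peak at 399 of them, control alone at 138 and MGO alone at 11. Of the 16810 genes with other promoter sequence, 72.2% had a peak in control and 69.4% in MGO. The ratio of MGO to control was 0.764 for low-GC starts and 0.961 for the others. From 0.35 to 0.40 of GC fraction it was 0.593, from 0.40 to 0.45 it was 0.682, and from 0.45 to 0.50 it was 0.839.

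Along the 537 low-GC starts with a control peak, peaks covered the start itself at 77.5% in control and at 55.1% in MGO, a ratio of 0.712. At 250 bp upstream coverage was 52.1% and 35.6%, and at 500 bp downstream it was 52.5% and 39.3%. At the 12144 other starts coverage of the start was 94.1% and 88.2%, a ratio of 0.937, and at 250 bp upstream it was 82.1% and 69.0%. Starts were taken because they had a control peak, so these levels favour control by construction.

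**Figure D5:**
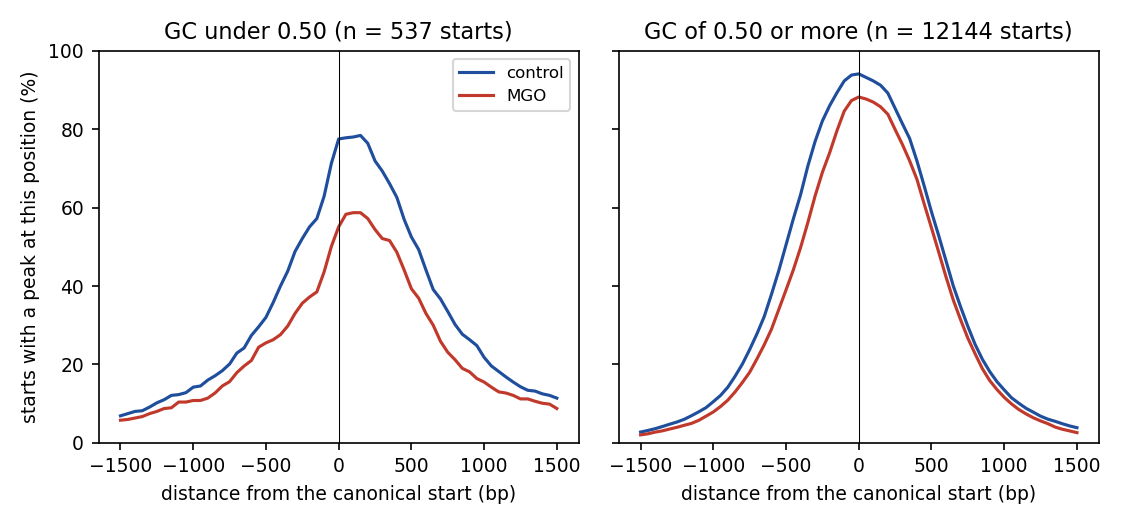
Share of canonical starts covered by a peak (%, y axis) by distance from the start in bp (x axis, negative upstream) in control (blue) and MGO (red), for 537 starts in low-GC sequence (left) and 12144 other starts (right) that had a control peak within 1000 bp. At the start the curves fall from 77.5% to 55.1% on the left and from 94.1% to 88.2% on the right.

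At the level of genes, 919 genes had a low-GC promoter peak in control. For 463 of them it was their only kind of promoter peak, and 288 of these genes had an MGO promoter peak (62.2%, 57.7 to 66.5%) while 175 had none. The other 456 genes also had a promoter peak of higher GC content, and 451 of them had an MGO promoter peak (98.9%). Within these 456 genes, 269 had no MGO overlap at the low-GC peak but kept it at the other peak, 179 had it at both, 6 at neither, and 2 at the low-GC peak alone. Of 12572 genes with peaks of higher GC content only, 93.9% had an MGO promoter peak. In 269 of the 919 genes, therefore, a promoter of higher GC content was still detected after MGO beside a low-GC peak that was not.

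The strongest members without an MGO peak show both situations. GRM8 (control fold enrichment 5.45, −log10 p 14.1, 986 bp from an alternative start), TBL1X, a corepressor subunit (4.84 and 11.5, at a start with a retained intron), and VAV3, a guanine nucleotide exchange factor (3.85 and 10.8), each had a peak at their canonical start in both libraries. GC (4.89 and 11.9), BTN3A1, a butyrophilin that takes part in the activation of γδ T cells (4.82 and 11.2), and RGS4, a regulator of G protein signalling (4.26 and 10.9), had their only promoter peak there and no MGO promoter peak at all. These peaks were at chr7:127107638-127108121, chrX:9542273-9542848, chr1:107688104-107689415, chr4:71784025-71785238, chr6:26402207-26402489 and chr1:163069309-163069885, in the order named. Except for BTN3A1, in a UTR, their middles were intronic. Their GC content ranged from 36.82% at GC to 49.83% at TBL1X, and their CpG content from 0.0486 at GC to 0.420 at TBL1X.

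The members of highest fold enrichment with an MGO peak, chosen on their control values, were mostly weaker in the MGO list. PRIM2 had a fold enrichment of 5.45 and a −log10 p of 21.1 in control and 3.58 and 7.81 in MGO. OSGEPL1, a tRNA-modifying enzyme of mitochondria, had 5.36 and 25.5 in control and 4.49 and 16.0 in MGO. For NDUFS4 the values were 5.33 and 12.6 in control and 4.43 and 10.0 in MGO, and for INSYN2B 5.29 and 18.1 in control and 3.43 and 6.08 in MGO. NUDT13 had 5.55 and 15.1 in control and 2.81 and 4.25 in MGO, where its −log10 q of 1.84 was below 2. All 5 lay at a canonical start. Enrichments of separately called lists are shown side by side only, since they carry no error.

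RGPD2, a member of a family of duplicated genes related to the nucleoporin RANBP2, had the highest −log10 p of all members, 95.4 in control and 97.8 in MGO, with fold enrichments of 6.34 and 6.26. Its peak (chr2:87824892-87825316) shared 30.9% of its 25-base words with the reference mitochondrial chromosome, the only one of 962 members to share any. Its 250 central bases on the plus strand (chr2:87824979-87825228) are shown because they carry that likeness.
RGPD2: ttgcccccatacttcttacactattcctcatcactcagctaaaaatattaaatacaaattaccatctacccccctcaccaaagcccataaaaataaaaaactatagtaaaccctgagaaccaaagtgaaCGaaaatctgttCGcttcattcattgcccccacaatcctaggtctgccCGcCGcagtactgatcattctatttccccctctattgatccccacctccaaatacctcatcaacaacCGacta
Whether reads of mitochondrial DNA are part of this peak was not tested. Without RGPD2 the difference between other and low-GC promoters was 44.7 points.

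The lowest GC contents at canonical starts went with either status. FABP2 (GC 32.97%, fold enrichment 3.16, −log10 p 4.41), GPR183 (33.08%, 2.94 and 3.95), EYS (33.33%, 3.39 and 5.55) and RASSF9, a Ras association domain protein (33.82%, 2.78 and 4.72), had no MGO peak. DNAJB4, a heat shock protein of the DNAJ family (33.41%, 3.98 and 16.2), had an MGO peak covering 65.2% of the control peak. CSRNP3, a nuclear protein (33.58%, 4.28 and 10.2), had one covering 96.1%, with a −log10 q of 1.75. The 2 with an MGO peak were the strongest of the 6 in control.

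Gene families, listed with earlier results of these data known, were described by their counts. All 7 low-GC peaks at replication-dependent histone genes had an MGO peak, and 23 of 25 other histone promoter peaks did. They lay in the histone clusters of chromosome 6, and the H4C3 peak had a CpG content of 0.961, a fold enrichment of 4.19 and a −log10 p of 11.8. Housekeeping families had few low-GC members. RPL34, MRPL1, MRPL54, PSMB2, NDUFA8 and NDUFS4, of the ribosomes, the proteasome and complex I, all had an MGO peak, and their CpG contents lay between 0.595 and 0.745. Zinc finger genes, with 432 other promoter peaks, had only 6 low-GC members, 4 of them with an MGO peak.

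Solute carriers were the largest family, with 18 low-GC members, of which 8 had an MGO peak, and 232 of 251 other solute carrier promoter peaks did. Over all genes the shares were 46.3% of low-GC members and 90.9% of the other promoter peaks, so these counts are near the background. SLC7A11, the cystine transporter, had an MGO peak covering 83.8% of its control peak (CpG content 0.357, −log10 p 12.2). Cadherins and protocadherins had 8 members, 4 with an MGO peak. CDH12, with peaks at its canonical start and at an alternative start, had an MGO peak at both, and CDH2 and CDH11 at alternative starts had none. Of 5 members at ubiquitin-conjugating or ubiquitin-specific protease genes, 1 had an MGO peak, at USP17L23, a gene of a family of near-identical copies, so its assignment is uncertain. Translation initiation factors, RNA helicases and kinesins had an MGO peak at 1 of 2, 1 of 2 and 1 of 3 members, TRIM genes at 2 of 3, and olfactory receptors at 1 of 4. The single members at splicing factor, centrosomal and HOX genes (SF3B3, CEP85L and HOXA9) had none. No member lay at a keratin gene. The list of DNA repair and checkpoint genes was short, at 13 genes, and held no member, while its 14 other promoter peaks all had an MGO peak. Members at DNA repair genes outside the list, named after their values were seen, included XRCC5 and RAD18, with an MGO peak, and FANCL, without. With so few members, these family shares have wide intervals and no family was tested.

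Short sequence motifs were counted from 250 bp before to 50 bp after the nearest start on both strands, as matches of letters, which are not sites of binding. The TATA box (TATAAA) was present in 20.4% of low-GC windows (17.9 to 23%) and 4.35% of the other promoter windows, with 9.71% of all canonical promoters. Read backwards, the same letters were in 24.8% of low-GC windows, no fewer than in the forward order. Between 36 and 24 bp before the start on the gene's own strand, TATAAA was found in 24 members (2.49%) against 1.42% of the other promoters and 3.85% of all canonical promoters. Of the members, 576 lay near alternative starts only, so shares over canonical promoters concern another kind of start. The GC box (GGGCGG) was in 15.4% of low-GC and 77.1% of other windows, with 61.3% of all canonical promoters and 17.0% of low-GC windows when read backwards. The CCAAT box (CCAAT) was in 38.1% and 34.5%, with 36.1% of all canonical promoters. Its letters in backward order were in 30.5% of low-GC windows and 17.2% of the other windows. The median window held 5 CpG in the members and 28 in the others.

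Members whose window held certain motifs more often had an MGO peak. With the ETS motif (CCGGAAG), present in 6.13% of members against 17.2% of the others and 14.1% of all canonical promoters, 51 of 59 did (86.4%, 75.5 to 93.0%), against 43.6% of members without it. The cyclic AMP response element (TGACGTCA) was in 2.60% of members, 3.26% of the others and 2.69% of all canonical promoters, and 22 of 25 members with it had an MGO peak (88.0%, 70.0 to 95.8%). The YY1 motif (AAGATGGCG) was in 2.49%, 3.60% and 2.84%, and 20 of 24 members with it did (83.3%, 64.1 to 93.3%). With a GC box 77.7% did. The NRF1 motif was in 3 members, and all 3 had an MGO peak. These motifs contain CpG, and members with the ETS, cyclic AMP response element, YY1 and GC box motifs had stronger control peaks, with median −log10 p of 8.93, 6.53, 7.17 and 8.34 against 4.73 to 4.95 without.

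The letters of the remaining motifs fix no CpG. Members with TATAAA had an MGO peak in 36.2% of cases (29.8 to 43.2%) against 48.8% without it, and members with CCAAT in 43.3% against 48.1%. The AP-1 motif (TGANTCA) was in 10.2% of members, 3.31% of the others and 5.44% of all canonical promoters, and 48.0% of members with it had an MGO peak (38.3 to 57.7%) against 46.1% without it. The octamer (ATTTGCAT) was in 2.60% of members, 1.23% of the others and 1.62% of all canonical promoters, and 16 of 25 members with it had an MGO peak (64.0%, 44.5 to 79.8%) against 45.8% of those without it. The ZNF143 and CTCF motifs were in 3 and 2 members, of which 3 and 0 had an MGO peak.

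Low-GC members made up 1.66% of promoter peaks on chromosome 19 and 14.2% on chromosome 6. On all 23 chromosomes that held members, a smaller share of low-GC than of other promoter peaks had an MGO peak. The low-GC share ranged from 25% on chromosome 16 (3 of 12) to 75.0% on chromosome 14 (21 of 28).

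The same rule applied to the MGO list found 450 low-GC peaks among 12063 protein-coding promoter peaks. Of these 368 overlapped a control peak (81.8%, 77.9 to 85.1%) and 82 did not, while 96.9% of the other MGO promoter peaks did, a difference of 15.1 points (11.8 to 19.0). In all, 3.65% of MGO promoter peaks and 21.1% of all MGO peaks on these chromosomes had no control peak. The low-GC peaks of MGO alone were weak, with a median fold enrichment of 2.88, a −log10 p of 3.93 and a width of 428 bp. The strongest were at RAPGEF4 (fold enrichment 3.85, −log10 p 7.06), an exchange factor activated by cyclic AMP, POMT2 (3.34 and 6.19), a protein O-mannosyltransferase, LCP2 (3.45 and 6.16), an adaptor of T cell receptor signalling, TMEM245 (3.41 and 5.70), DNAH11 (3.55 and 5.68), a dynein heavy chain, and HSD17B12 (3.48 and 5.54), an enzyme of fatty acid elongation. All 6 were intronic and near alternative starts only. LCP2 had no control promoter peak, and the other 5 genes had a peak at the canonical start in both libraries.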

How the data were processed

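ATAC-seq peaks of 293T cells, with 1 control and 1 MGO library, were analysed as broad peaks per library. Per the study's methods, the authors aligned 50 bp paired-end reads to GRCh38.p12 with BWA-MEM (0.7.15), used Picard to remove mitochondrial and multi-mapping reads (2.16.0 in the submitters' processing notes), equalized depth by taking random reads, and called broad peaks with MACS2 outside blacklisted regions. The methods kept peaks above a −log10 q of 2 for later steps. They also took consensus peaks at a limit of the Irreproducible Discovery Rate, a step not repeated here. The MACS2 version and its other options are not given in the sources used here. The deposited lists give for each peak the fold enrichment (a ratio), −log10 p and −log10 q, as set by the authors. The deposited score was not used. The weakest −log10 q was 1.01 in each list, and all deposited peaks were kept. No read counts are in these lists, so the depth behind a peak is unknown.

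Peaks on other contigs (627 control, 505 MGO) were not members. Starts were 146197 distinct positions of 170371 transcripts of protein-coding genes in GENCODE 44, an annotation of GRCh38. Overlap required 1 bp and was checked against bedtools 2.31.1, with 17635 control peaks overlapping by either. Shares have 95% Wilson intervals and differences Newcombe intervals. Differences at equal peak properties used Mantel-Haenszel weights. Simulated data covered these weights for 10 groups of −log10 p only, and finer groups were not simulated. A group with a single peak of a set adds no variance, so intervals over finer groups are too narrow. No test between conditions was made. Alternatives were other overlaps, peak thresholds, start distances, GC limits and windows, canonical starts, autosomes and equal peak numbers.

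Named genes were the 6 members of highest −log10 p without an MGO peak, the 6 of highest fold enrichment with an MGO peak, the 6 of lowest GC content containing a canonical start, the 6 MGO promoter peaks of highest −log10 p without a control peak, and 3 on each side of the GC limit. Some of the genes chosen are not reported here. Genes named as family members or exceptions follow the family lists or were chosen after their values were seen. Members, lists and the rule were chosen with earlier results of these data known. Sequences were read from the GRCh38 reference for the first members of the first 3 groups, without annotated UTR, and none was printed where under 100 bases were left. Python 3.11.15, numpy 2.4.6, pandas 2.3.3, scipy 1.17.1 and matplotlib 3.10.9 were used.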

Additional observations from a re-analysis of the deposited data

How the results depend on the processing

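The difference between other and low-GC promoter peaks was above 0 in all 26 alternatives, from 1.65 to 56.4 points. These alternatives reuse the same pair of lists and are not independent of each other. At equal CpG content (1.65 points, −1.73 to 5.04) and at a fold enrichment of at least 4 the interval includes 0. Of 115 recomputed values, 40 stayed within the reported interval. Causes of the shifts were not tested. With 50% of the control peak covered, the shares of low-GC and other promoters with an MGO peak and their difference were 35.9%, 84.3% and 48.4 points, and with reciprocal cover of 50% the shares were 34.3% and 82.1%. They were 53.4%, 87.4% and 34.0 points at a minimum −log10 q of 2, the limit in the study's methods. At a −log10 q of at least 5 the other promoters had 68.5% and the difference was 23.2 points. At a fold enrichment of at least 4 the values were 34.1%, 40.3% and 6.22 points, with an interval of −2.46 to 14.0 that includes 0 (129 low-GC peaks). With equal numbers of peaks they were 67.8%, 94.8% and 27.0 points. With starts within 500 bp they were 52.0%, 91.7% and 39.7 points, within 2000 bp 39.4%, 89.5% and 50 points, and with the start inside the peak 63.2%, 93.5% and 30.3 points. GC limits of 0.45 and 0.55 gave 33.5%, 89.9% and 56.4 points, and 65.2%, 91.6% and 26.4 points. Canonical starts alone gave 68.4%, 94.0% and 25.6 points. Within peaks near canonical starts and near other starts only, differences were 25.6 and 34.9 points. Weighting by fold enrichment gave 39.2 points, by −log10 p 27.7, by width 33.6, and by the last pair together 25.7. Alternatives chosen after seeing the data were equal CpG content (1.65 points), equal −log10 p, width and kind of start (19.1), equal −log10 p, width and CpG content (4.13), and 50 groups of −log10 p (26.5).

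The share of MGO low-GC promoter peaks with a control peak was 72.4% and 62.7% under the overlap rules, 88.0% and 94.7% at −log10 q of 2 and 5, 72.9% with equal numbers, 85.7% and 75.4% within 500 and 2000 bp, 92.9% with the start inside, 76.8% and 89.2% at GC limits of 0.45 and 0.55, 85.4% with GC around the start, and 94.7% at canonical starts. Low-GC canonical starts with a control and an MGO peak were 14.7% and 11.1% at a −log10 q of 2, 8.87% and 5.06% at 5, 4.81% and 1.86% at a fold enrichment of 4, 18.4% and 14.3% within 2000 bp, 10.6% and 6.89% at a GC limit of 0.45, and 25.5% and 21.7% at 0.55. With equal numbers of peaks control had 14.6%. The median cover was 66.9% and 76.6% at the GC limits and 77.8% with GC around the start. The median width ratio was 0.744 at a −log10 q of 5, 0.733 at a fold enrichment of 4 and 0.843 with GC around the start. Of 90 repeats for named peaks, 15 changed status. Only the other list was restricted in these repeats, so named peaks without an overlap could not change. No paired analysis was possible because each condition has a single library. The lists carry no depth, so no error from sequencing could be set beside a peak.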
